A study of Gallus gallus with 5 samples.

Results

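DT40 cells, a chicken B cell line established from a bursal lymphoma, were compared here in 2 states: the wild type (WT), and a line (DKO+H2A.Z.1) that lacks the genes for both isoforms of the histone variant H2A.Z and was given back H2A.Z.1. The comparison rests on the array titled for the H2A.Z.1-complemented double knockout and the array titled for wild type clone cl18, which are 2 of the 5 arrays of the series and lay on the same slide. It asks what still differs from WT when H2A.Z.1 is supplied. The other arrays hold the double knockout (DKO) and the DKO complemented with a form called 5KR-H2A.Z (DKO+5KR-H2A.Z) or H2A-H2A.Z (DKO+H2A-H2A.Z), and their levels are given beside those of the compared pair. All 5 cultures, WT included, were kept for 72 hours in tetracycline at 2 µg/ml, which turns off a tetracycline-repressible H2A.Z.1 transgene. The labels do not say which lines carry that transgene, nor how many clones stand behind each line. They also conflict for the DKO array: by title and source name it is the double knockout, while its description and genotype match those of the H2A.Z.1-complemented line.

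Each group has 1 array. No difference below could be checked on a replicate or given a p-value, and the number of arrays limits the precision. A gene's level is given as the log2 of its processed signal minus the log2 of the 75th percentile of that array, so a level of 0 is the signal that 25% of the spots on the array exceed. A difference is the DKO+H2A.Z.1 level minus the WT level, and a fold is that difference on the linear scale. Where a gene's signal was not well above background on 1 of both arrays, its fold is a bound, written "at least". The bound is set against the higher of the dim array's lowest signal above background and the gene's own signal there. Signals over that lowest value were not always well above background: in DKO+H2A.Z.1 the lowest was -7.29, and MBP at -6.84 was not. A bound is therefore approximate and not a firm minimum, and a small one is weak. Of 5382 genes that could be named, 4425 were measured in this comparison, meaning well above background on at least 1 of both arrays, and 4217 of these were so on both.

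H2A.Z replaces the common histone H2A in part of the nucleosomes. Chaperones and remodelling complexes of the SRCAP and p400 type place it, mostly beside the starts of genes and at other regulatory DNA, and its tail carries lysines that can be acetylated. Vertebrates encode it in a pair of genes, for H2A.Z.1 and H2A.Z.2. DT40 is much used for gene targeting, because it integrates DNA readily by homologous recombination, and for the study of immunoglobulin gene diversification.

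The arrays were close in quality. Spots well above background numbered 30574 on the WT array and 30115 on the DKO+H2A.Z.1 array, of 43803 that are not controls, and no spot was saturated. Spots printed more than once had a median SD of 0.0601 on the WT array and 0.0558 on the DKO+H2A.Z.1 array on the log2 scale, and the larger of these, times the square root of 2, gives a spread of 0.0850 for a difference. This is a spread within arrays and says nothing of how cultures of the same line vary. Among 2843 genes with several measured probes, the median SD of the difference over a gene's probes was 0.0690. DKO+H2A-H2A.Z and DKO+5KR-H2A.Z were on a second slide, so where their levels depart from those of WT, DKO or DKO+H2A.Z.1, line and slide cannot be told apart.

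The gene for H2A.Z.1 itself, H2AFZ, was read by 2 probes. On the brighter one, A_87_P037084, its level was 5.87 in WT, 1.11 in DKO, 0.81 in DKO+H2A.Z.1, 1.24 in DKO+5KR-H2A.Z beside 0.92 in DKO+H2A-H2A.Z. On this probe DKO+H2A.Z.1 was 33.4-fold below WT. On A_87_P194348 the level was 6.17 in WT, -0.37 in DKO, -0.31 in DKO+H2A.Z.1, -0.20 in DKO+5KR-H2A.Z beside -0.46 in DKO+H2A-H2A.Z, which put DKO+H2A.Z.1 89.2-fold below WT. Only the WT array stood high on both probes. The array labelled as expressing H2A.Z.1 lay among the other lines made from the DKO, although both probes were well above background on all 5 arrays. The part of the transcript that these probes read was not known, so whether they can detect the introduced H2A.Z.1 was not tested, and DKO+H2A.Z.1 throughout is the array labelled so.

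Most genes lay near their WT level. The median difference of the 4425 measured genes was -0.04, the middle 50% of them ran from -0.21 to 0.12, and 3851 genes, or 87.0%, were less than 1.5-fold apart. In DKO+H2A.Z.1, 86 genes were higher by 2-fold or more (1.94%) and 174 lower (3.93%), together 260 (5.88%). With normexp, a background correction that damps dim signals, the counts were 40 and 57. Probes showed the same split, with 788 of 31120 higher (2.53%) and 1397 lower (4.49%), and unnamed probes passed 2-fold somewhat more often than named ones, 2.81% against 1.91% higher and 5.10% against 3.11% lower.

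**Figure D1:**
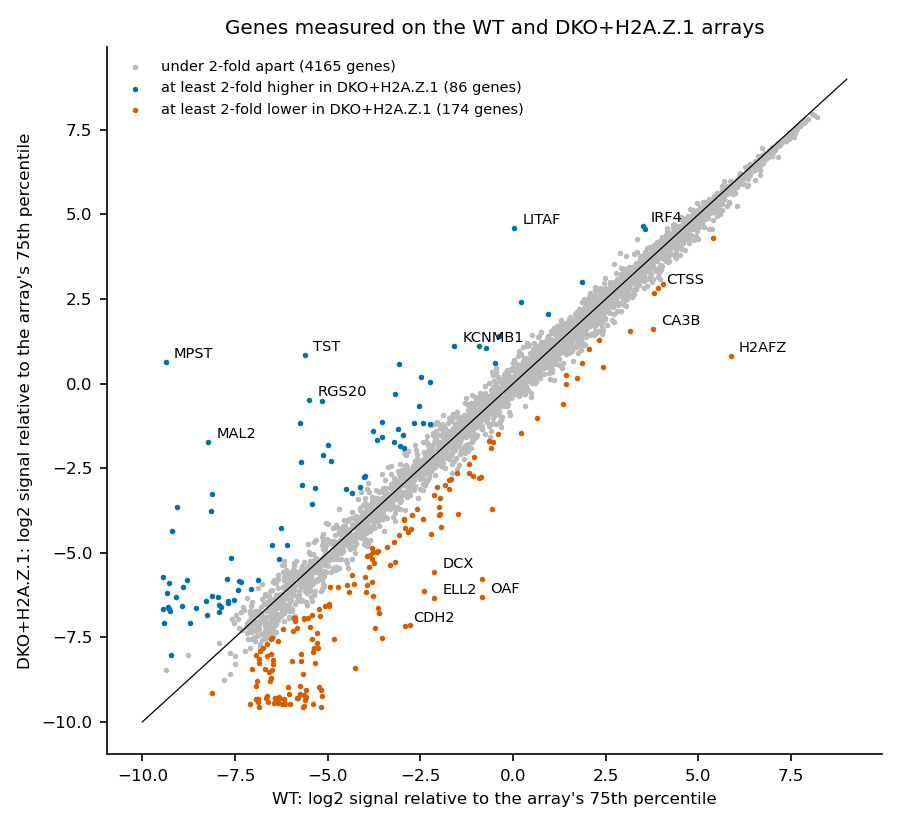
Level of each of the 4425 measured genes on the WT array (horizontal) and on the DKO+H2A.Z.1 array (vertical), both as log2 signal relative to the array's 75th percentile; each point is 1 gene on 1 array per group, the line marks equal levels, and colours mark genes at least 2-fold apart. Points past 2-fold gather at the dim end, and LITAF, IRF4, CTSS, CA3B and H2AFZ are among the few that lie higher up.

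Dim genes made up most of those past 2-fold. In the dimmest 25% of measured genes, by mean level on the pair, 64 of 1107 were higher (5.78%) and 143 lower (12.9%). In the brightest 25%, 2 of 1106 were higher and 5 lower. Of the 86 higher genes, 37 were not well above background in WT, and for 17 of those the bound itself reached 2-fold. Of the 174 lower genes, 77 were not well above background in DKO+H2A.Z.1, and the bound reached 2-fold for 40. Probes of the same gene mostly gave the same call: of 42 higher genes with several probes, 36 were past 2-fold on every probe and 2 had a probe of opposite sign, and of 60 such lower genes 43 were past 2-fold on every probe and none had a probe of opposite sign. The raw difference was at least 8-fold for 18 higher and 36 lower genes. These counts take in genes not well above background on 1 array, whose bounds can be smaller. Among genes named below that were well above background on both arrays, SPRY2, IL18, IRF1, BCL2, TNFRSF1A, P4HA2, CDH20, SSX2IP, HBA1 and GLRX came under 2-fold with normexp, at sizes of 0.35 to 0.95 on the log2 scale. Among those with a bound, AVR2, BCL2A1, CD14, CDH10, HOXA2, HOXD8, IFIH1, LGALS1B, LPAR3, LRRC7, LUM, RGS7, SALL1, SDC2 and SFTPA2 did so too. GATA3 and CASP18, which also have bounds, passed 2-fold in only 8 and 4 of 10 alternative settings. Their smallest sizes over these settings were 0.45 and 0.32 on the log2 scale.

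Among the higher genes the first place belonged to a pair of neighbours that handle sulfur. TST, thiosulfate sulfurtransferase or rhodanese, a mitochondrial enzyme that passes sulfur to cyanide, had a level of -5.61 in WT, -0.65 in DKO, 0.85 in DKO+H2A.Z.1, 0.41 in DKO+5KR-H2A.Z beside 0.85 in DKO+H2A-H2A.Z, 88.1-fold higher in DKO+H2A.Z.1 than in WT on its single probe. MPST, mercaptopyruvate sulfurtransferase, which can release hydrogen sulfide, had levels of -9.37, -1.56, 0.64, 0.76 and 0.87 in the same order of arrays. It was not well above background in WT, and DKO+H2A.Z.1 was at least 229-fold higher, with both of its probes past 2-fold. Over the alternative settings the smallest size for MPST was 5.28 on the log2 scale. WT stood alone at the low end for both enzymes, DKO stood between WT and the complemented line, and the 3 complemented lines lay close together. The remaining 11 measured genes of the list of sulfurtransferases and hydrogen sulfide metabolism were under 2-fold apart, and the list's median difference was 0.04.

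Signalling genes came next. RGS20, which shortens G protein signals by speeding GTP hydrolysis, had levels of -5.50 in WT, 0.39 in DKO, -0.48 in DKO+H2A.Z.1, -0.49 in DKO+5KR-H2A.Z beside -1.03 in DKO+H2A-H2A.Z, 32.5-fold higher in DKO+H2A.Z.1 than in WT and past 2-fold on 3 of 3 probes. MAPK11, a p38 MAP kinase, had levels of -5.15, 0.24, -0.51, -0.27 and -0.14 in the same order, 4.65 higher on the log2 scale and likewise past 2-fold on 3 of 3 probes. For both genes WT was the lone low array. Of the 32 measured genes on the list of MAP kinase and G protein signalling, 3 were at least 2-fold higher and 1 lower (beside 1.94% higher and 3.93% lower over all genes), and the median was 0.06: the third higher gene was SPRY2, an inhibitor of receptor tyrosine kinase signalling (2.06-fold), and the lower one was RGS7, another regulator of G protein signals, at least 3.73-fold lower. PRR5, a subunit of the mTORC2 kinase complex, was 7.43-fold higher, with levels of -3.19 in WT and -0.30 in DKO+H2A.Z.1.

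LITAF, a membrane protein of late endosomes first known as a factor induced by lipopolysaccharide, was higher in every line made from the DKO. Its level was 0.03 in WT, 5.60 in DKO, 4.59 in DKO+H2A.Z.1, 5.09 in DKO+5KR-H2A.Z beside 3.09 in DKO+H2A-H2A.Z, and the difference from WT of 4.55 on the log2 scale, 23.5-fold, was repeated by its second probe at 4.78. NAV3, a microtubule-associated protein related to axon guidance, was not so in every line: its levels were -5.74, -1.62, -1.17, -2.03 and -5.19. DKO+H2A.Z.1 was 23.9-fold above WT, and DKO and DKO+5KR-H2A.Z lay with it, while DKO+H2A-H2A.Z lay near WT.

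The other genes among the 15 largest higher differences had mixed functions. FAM26E, of the family of calcium homeostasis modulators, was 12.8-fold higher, OCM3, of the oncomodulin family of calcium-binding proteins, 8.07-fold, and KCNMB1, the regulatory subunit of a calcium-activated potassium channel, 6.49-fold. SERPINE2, a secreted protease inhibitor, was 6.44-fold higher, and ANXA5, which binds phosphatidylserine, 6.16-fold. ZC3HAV1, an antiviral RNA-binding protein, was 6.48-fold higher and LRRC40 5.28-fold. CD3E, which belongs to the T cell receptor complex, was 10.6-fold higher on the brighter of its probes, but its other probe differed by only 0.78 on the log2 scale.

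Bounds added genes that were not well above background in WT. MAL2, a membrane protein of transcytosis, was at least 44.1-fold higher, with levels of -8.22 in WT and -1.74 in DKO+H2A.Z.1. ENAH, an actin regulator, was at least 11.7-fold higher, with levels of -9.08 and -3.65, and TLR1A, a toll-like receptor for bacterial lipopeptides, at least 10.7-fold, with levels of -8.15 and -3.77. FABP4, a carrier of fatty acids, was at least 7.19-fold higher, and its neighbour FABP5, which was well above background on both arrays, was 9.09-fold higher. Over the alternative settings the smallest sizes on the log2 scale were 3.03 for MAL2, 1.30 for ENAH, 1.46 for TLR1A and 1.05 for FABP4. For ENAH, TLR1A and FABP4 these lie below the bounds.

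**Figure D2:**
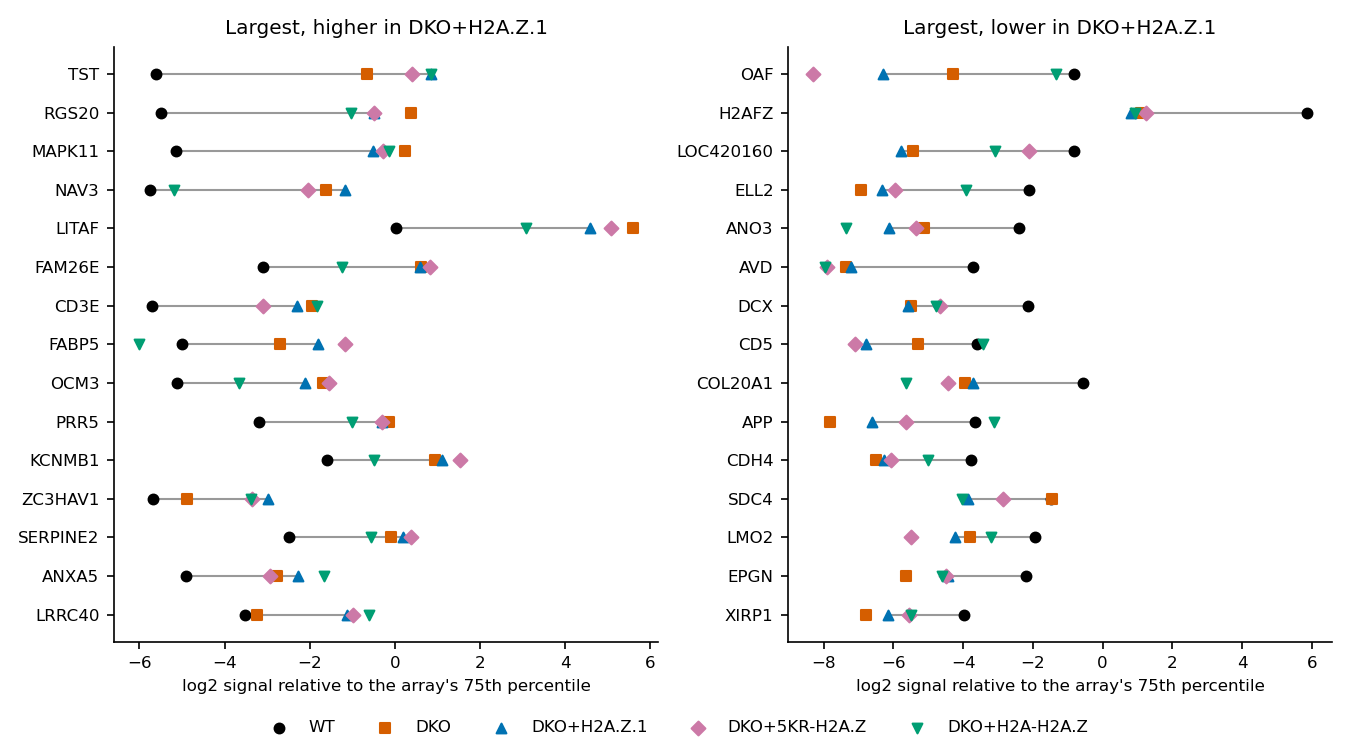
Levels on all 5 arrays (log2 signal relative to the array's 75th percentile) of the 15 genes that differed most each way among those well above background in both WT and DKO+H2A.Z.1; each symbol is 1 array and a grey line joins that pair. TST runs from -5.61 in WT to 0.85 in DKO+H2A.Z.1 and OAF from -0.83 to -6.31, and for LITAF, RGS20, MAPK11 and H2AFZ the WT symbol stands apart from the 4 others.

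On the lower side OAF led, with levels of -0.83 in WT, -4.28 in DKO, -6.31 in DKO+H2A.Z.1, -8.31 in DKO+5KR-H2A.Z beside -1.34 in DKO+H2A-H2A.Z, which placed DKO+H2A.Z.1 44.5-fold below WT. After H2AFZ and LOC420160 (30.9-fold lower) came ELL2, an elongation factor of RNA polymerase II that supports immunoglobulin secretion in mouse plasma cells. Its levels were -2.12, -6.94, -6.33, -5.94 and -3.91 in the same order of arrays, 18.5-fold lower in DKO+H2A.Z.1. Over the alternative settings the size for ELL2 fell to 2.25 on the log2 scale. OAF and ELL2 were each read by 1 probe. In both, DKO+H2A-H2A.Z lay nearer to WT than DKO+H2A.Z.1 did.

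ANO3, a membrane protein of the anoctamin family, was 13.1-fold lower, but its size fell to 2.00 on the log2 scale over the alternative settings. AVD, avidin, the biotin-binding protein of egg white that chicken leukocytes also make, was 11.3-fold lower, with levels of -3.72 in WT and between -7.96 and -7.22 on the other 4 arrays. Its DKO+H2A.Z.1 level of -7.22 lay just over that array's lowest signal above background, -7.29. The size of its difference fell to 1.54 on the log2 scale over the alternative settings. DCX, doublecortin, a microtubule protein of migrating neurons, was 10.8-fold lower, with levels of -2.13 in WT and between -5.57 and -4.67 elsewhere. For AVD and DCX the WT array was alone at the high end, and both probes of each gene passed 2-fold. CD5, a surface glycoprotein of T cells and some B cells, was 8.96-fold lower on its brighter probe, against a difference of -0.34 on the other.

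APP, the amyloid precursor protein, was 7.85-fold lower on its brightest probe with 3 of 3 probes past 2-fold, and its levels of -3.65 in WT, -7.82 in DKO, -6.63 in DKO+H2A.Z.1, -5.63 in DKO+5KR-H2A.Z beside -3.11 in DKO+H2A-H2A.Z put only the last line beside WT. LMO2, an adaptor in blood transcription factor complexes, was 4.90-fold lower, EPGN, a ligand of the EGF receptor, 4.71-fold, and XIRP1, an actin-binding protein of muscle, 4.51-fold. Over the alternative settings the sizes fell to 1.37 on the log2 scale for APP, 1.71 for LMO2, 1.66 for EPGN and 1.04 for XIRP1. Among the bounds, the lectin MBL2, which starts complement activation, was at least 13.4-fold lower on its brightest probe, with levels of -3.54 in WT and -7.53 in DKO+H2A.Z.1 and 3 of 3 probes past 2-fold. MPZL2, an adhesion molecule, was at least 8.09-fold lower and the galectin LGALS1B at least 5.45-fold. Over the alternative settings the sizes fell to 1.49 on the log2 scale for MBL2, 1.15 for MPZL2 and 0.85 for LGALS1B.

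Surface and matrix genes were found on both sides. Of 50 measured genes on the list of adhesion and extracellular matrix, 7 were at least 2-fold higher and 5 lower (beside 1.94% higher and 3.93% lower over all genes), and the median was -0.13. Among the lower genes were 3 cadherins, which join cells through calcium-dependent contacts: CDH2 at least 19.1-fold (levels -2.92 in WT and -7.18 in DKO+H2A.Z.1), CDH4 5.63-fold and CDH20 2.60-fold. Over the alternative settings the sizes fell to 1.78 on the log2 scale for CDH2 and 1.25 for CDH4. A further cadherin, CDH10, went the other way, but its bound was only at least 1.47-fold. COL20A1, a collagen, was 8.87-fold lower, with levels of -0.56 in WT, -3.94 in DKO, -3.71 in DKO+H2A.Z.1, -4.44 in DKO+5KR-H2A.Z beside -5.63 in DKO+H2A-H2A.Z. COL1A2, a chain of the main collagen of connective tissue, was 4.88-fold higher on its brightest probe and past 2-fold on 3 of 4, with levels of -2.23, 0.14, 0.06, 0.06 and -1.28. The syndecans SDC4 and SDC2, proteoglycans of the cell surface, were 5.20-fold and at least 4.39-fold lower.

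Innate sensing genes gave the largest number of calls after adhesion, with no account taken of list length. In the dimmest 25% of all measured genes, 5.78% were higher and 12.9% lower. Of 37 measured genes on the list of NF-kappaB, innate sensing and interferon response, 3 were higher (LITAF, TLR1A and ZC3HAV1) and 6 lower, with a median of -0.01, beside 1.94% higher and 3.93% lower over all genes. The lower ones included TLR3, a sensor of double-stranded RNA (4.21-fold; levels -3.18 in WT and -5.26 in DKO+H2A.Z.1), TLR4, which senses lipopolysaccharide (4.10-fold; -3.33 and -5.37), and the inflammatory cytokine IL18 (3.27-fold; -4.00 and -5.71). IRF1, a transcription factor induced by interferon, was 2.90-fold lower. IFIH1, a cytosolic RNA sensor, was at least 2.17-fold lower. Genes at the core of the pathway lay near WT: NFKB1 differed by -0.08, TBK1 by -0.01 and MYD88 by 0.22 on the log2 scale.

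Calls among transcription and chromatin genes stand beside 1.94% higher and 3.93% lower over all genes. In the list of H2A.Z and replacement histone variants, H2AFZ was the 1 gene of 7 measured that did. None of the 17 measured genes of H2A.Z exchange complexes and histone chaperones reached 2-fold in either direction: they ran from -0.44 for ING3 to 0.27 for UBN1, with a median of -0.02. At the shares over all genes, a list of this size can hold none. Among 25 Polycomb, DNA methylation and histone-modifying enzymes, KDM5B, a histone demethylase, was 3.10-fold lower, with levels of -1.09 in WT, -3.31 in DKO, -2.72 in DKO+H2A.Z.1, -2.78 in DKO+5KR-H2A.Z beside -1.43 in DKO+H2A-H2A.Z. The median of that list was -0.15. Of 64 developmental transcription factors none was higher and 4 were lower, beside 1.94% and 3.93% of all genes. LMX1B, a LIM homeobox factor, was 4.20-fold lower with 3 of 3 probes past 2-fold. Its size fell to 1.05 on the log2 scale over the alternative settings. The 3 others, HOXA2, SALL1 and HOXD8, were dim in WT and not well above background in DKO+H2A.Z.1. Their bounds were at least 2.79-fold, 2.94-fold and 1.34-fold.

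Most genes of growth and metabolism lay near their WT level, as did most of all measured genes. None of 34 genes of G1/S and DNA replication, 34 of mitosis, 47 of cytosolic ribosomal proteins, 17 of MYC targets and ribosome biogenesis, 13 of cholesterol synthesis, 20 of the responses to unfolded protein and amino acid stress, 5 immediate early transcription factors, 32 of oxidative phosphorylation or 24 of heat shock and chaperones was 2-fold apart. Over all genes 1.94% were higher and 3.93% lower. In the brightest 25% of genes only 0.18% were higher and 0.45% lower, so lists of bright genes, such as ribosomal proteins, can hold none. Ribosomal proteins ran from -0.29 for RPL13 to 0.05 for RPLP0. Of 25 apoptosis genes 1 was higher and 3 were lower, beside 1.94% and 3.93% of all genes. Among the lower ones were the survival factor BCL2 (2.22-fold; levels -1.83 in WT and -2.98 in DKO+H2A.Z.1) and the death receptor TNFRSF1A (2.14-fold; -2.95 and -4.04). CASP18, also lower, had only a bound, at least 1.70-fold. The higher one, BCL2A1, was at least 1.37-fold higher and had a difference of -0.046 with normexp. Single genes stood out in other lists: SLC17A5, which exports sialic acid from lysosomes, was 2.13-fold higher, P4HA2, an enzyme of collagen hydroxylation, 2.70-fold lower, and RAB24, a GTPase linked to autophagy, 2.18-fold lower.

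**Figure D3:**
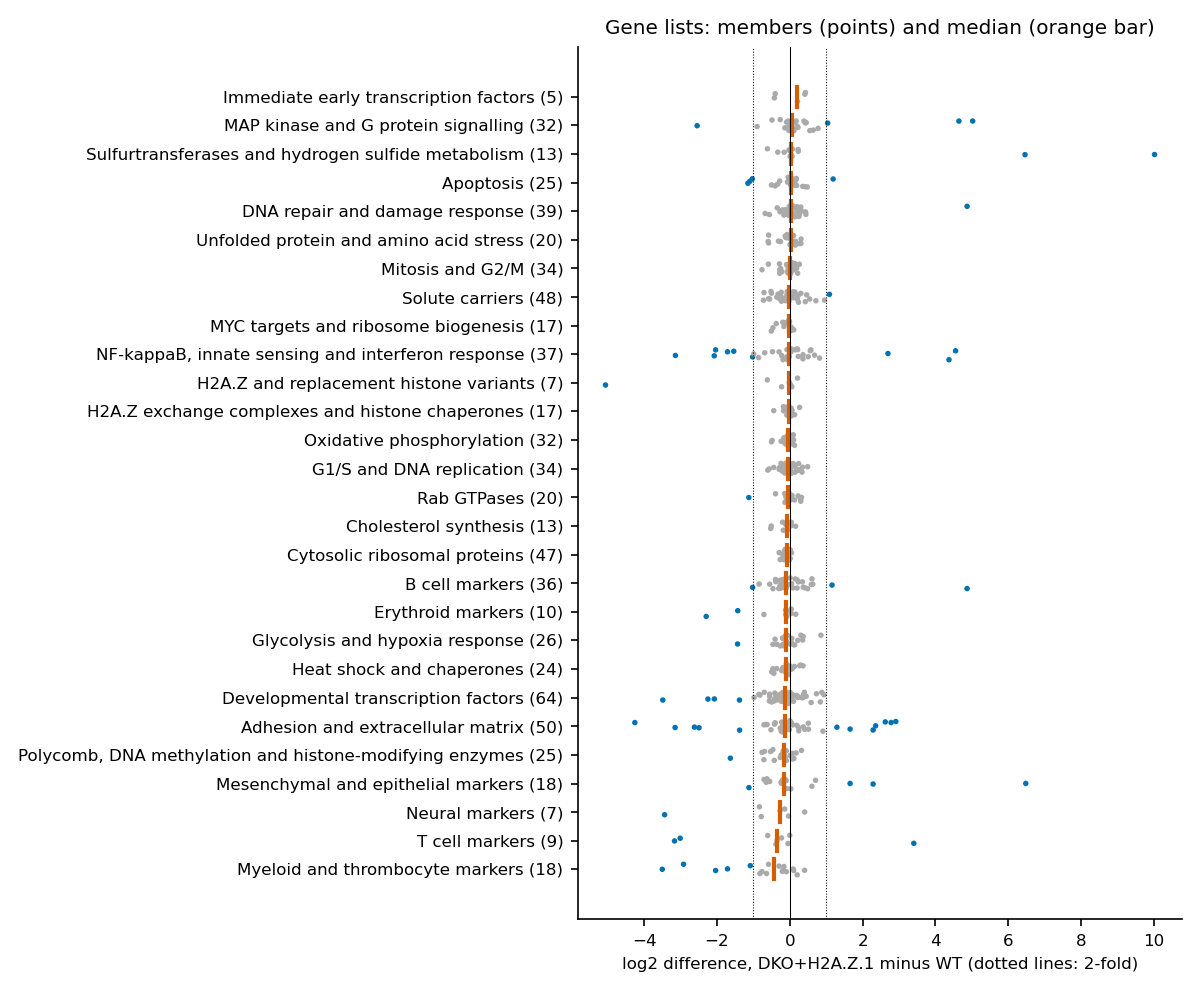
Difference on the log2 scale, DKO+H2A.Z.1 minus WT, of every measured gene (points) of 28 gene lists, with 1 array per group; numbers in brackets are genes measured, orange bars are medians, and blue points are at least 2-fold apart (dotted lines). Medians run from -0.44 for myeloid and thrombocyte markers to 0.21 for immediate early transcription factors, beside -0.04 for all genes, and 10 lists have no gene past 2-fold. The median of 0.21 rests on 5 genes and ran from -0.32 to 0.26 over the alternative settings.

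Both arrays carried the marks of B cells. Of 40 B cell markers on the array, 35 were well above background in WT and 36 in DKO+H2A.Z.1, among them CD79B, a chain of the B cell receptor (levels 6.53 and 6.58), CD72 (6.03 and 5.93), POU2AF1 (5.17 and 5.37), BTK (3.28 and 3.27), LYN (4.03 and 3.90) and PAX5, the master factor of B cell identity (-2.57 and -2.42). Of 36 measured, 2 were past 2-fold higher and 1 lower, beside 1.94% and 3.93% of all genes, with a median of -0.10. One of the higher genes was IRF4, a transcription factor of activated B cells and plasma cells, with levels of 3.49 in WT, 4.93 in DKO, 4.65 in DKO+H2A.Z.1, 4.61 in DKO+5KR-H2A.Z beside 3.63 in DKO+H2A-H2A.Z (2.24-fold). Its relative IRF8, active in B and myeloid cells, was 2.03-fold lower, with levels of 2.06 in WT, 1.04 in DKO+H2A.Z.1, 1.37 in DKO+5KR-H2A.Z beside 1.84 in DKO+H2A-H2A.Z and a DKO level that differed from WT by -0.95, and passed 2-fold in 7 of 10 alternative settings. For both factors DKO+H2A-H2A.Z lay beside WT, and DKO and DKO+5KR-H2A.Z lay with DKO+H2A.Z.1.

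Markers of other cells differed less evenly. Of 18 measured myeloid and thrombocyte markers, none was higher and 5 were lower: AVD, CD14, TLR4, IL18 and CTSS. Over all genes 3.93% were lower, and in the dimmest 25% of genes 12.9%. The median was -0.44, it ran from -0.44 to -0.20 over the alternative settings, and the log2 of the summed signal was 4.37 in WT and 3.57 in DKO+H2A.Z.1, most of which came from 1 gene. This was CTSS: the lysosomal protease cathepsin S was well above background on both arrays and 2.12-fold lower, with levels of 3.90 in WT, 3.09 in DKO, 2.82 in DKO+H2A.Z.1, 2.85 in DKO+5KR-H2A.Z beside 3.57 in DKO+H2A-H2A.Z. TLR4 and IL18 are also on the innate sensing list, so their calls are shared. Both cultures were of the DT40 B cell line, so these differences are given as transcript levels and not as shares of myeloid cells. Whether other cells were present was not tested. On the WT array 18 of 23 markers of this list were well above background, and on the DKO+H2A.Z.1 array 16, CTSS, NCF1C, MMP9, CYBB and LYZ on both, whereas C1QC and TREM2, defining genes of macrophages, were so on neither.

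T cell markers gave 1 higher and 2 lower of 9 measured. Over all genes 1.94% were higher and 3.93% lower, and in the dimmest 25% of genes 5.78% and 12.9%. The lower markers were CD5 and GATA3, the latter with a bound of at least 1.96-fold. Of 14 on the array, 9 were well above background in WT and 8 in DKO+H2A.Z.1, among them CD3D, CD247, CD8A, CD28 and TCF7 on both, while CD4, CTLA4 and ICOS were on neither. The log2 summed signal of that list was 6.40 in WT and 6.18 in DKO+H2A.Z.1, nearly all of it from CD3D, another chain of the receptor complex (6.38 and 6.15). Among 10 erythroid markers 2 were lower, LMO2 and HBA1, a globin chain (2.69-fold, and 0.46 on the log2 scale with normexp), among 18 mesenchymal and epithelial markers 3 were higher and 1 lower, and among 7 neural markers DCX was lower. The same shares over all genes and over dim genes stand beside these counts. The log2 summed signal was 2.96 in WT and 2.91 in DKO+H2A.Z.1 for erythroid, 2.71 and 2.79 for mesenchymal and epithelial, and 6.26 and 6.12 for neural markers. Few genes carried these sums: STMN2 the neural one (6.24 and 6.10), S100A6 most of the mesenchymal and epithelial one (2.39 and 2.20), and ALAS1, matched through a synonym of a listed name, with BPGM most of the erythroid one.

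A further question was where DKO+H2A.Z.1 stood apart from both WT and DKO, since such a level is found in neither of them. SELENOP1, a selenium carrier, had levels of -3.78 in WT, -3.24 in DKO, -1.41 in DKO+H2A.Z.1, -1.28 in DKO+5KR-H2A.Z beside -1.92 in DKO+H2A-H2A.Z, 5.17-fold above WT with 3 of 3 probes past 2-fold. LRRC40 had levels of -3.53, -3.24, -1.13, -0.98 and -0.60, and ZC3HAV1 of -5.68, -4.89, -2.98, -3.36 and -3.37. In all of these, WT and DKO lay low and the 3 complemented lines lay high. CXCR7, an atypical chemokine receptor, and PDLIM5, a protein of the actin cytoskeleton, followed the same order with differences from WT of 3.36-fold and 2.77-fold, each with every probe past 2-fold. MND1, a factor of meiotic recombination, differed in that DKO+5KR-H2A.Z lay nearer to WT than to DKO+H2A.Z.1: its levels were -3.66, -3.50, -1.67, -3.06 and -2.18.

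Levels below both WT and DKO were found for SDC4, with -1.48 in WT, -1.46 in DKO, -3.86 in DKO+H2A.Z.1, -2.85 in DKO+5KR-H2A.Z beside -4.03 in DKO+H2A-H2A.Z. IRF1 was similar, with levels of -2.84, -2.20, -4.38, -4.48 and -4.48 and both probes past 2-fold below WT. The 3 complemented lines lay together below WT and DKO for IRF1, and less closely for SDC4. PIK3R5, a regulatory subunit of the phosphoinositide kinase that acts downstream of G protein-coupled receptors, had levels of 1.35, 0.64, -0.60, -0.14 and 0.38, which placed DKO+H2A.Z.1 3.84-fold below WT with 3 of 3 probes past 2-fold. GRAPL, an adaptor protein, had levels of 1.43, 1.09, 0.00, 0.22 and 0.90, and was 2.69-fold lower with both probes past 2-fold. TENM2, a teneurin adhesion protein, stood lowest in DKO+H2A.Z.1 alone, with levels of -0.86, -1.56, -2.75, -1.19 and -0.44, 3.70-fold lower with 3 of 3 probes past 2-fold. These genes were ordered by their smaller difference from WT and DKO, so their distance from both describes how they were chosen.

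**Figure D4:**
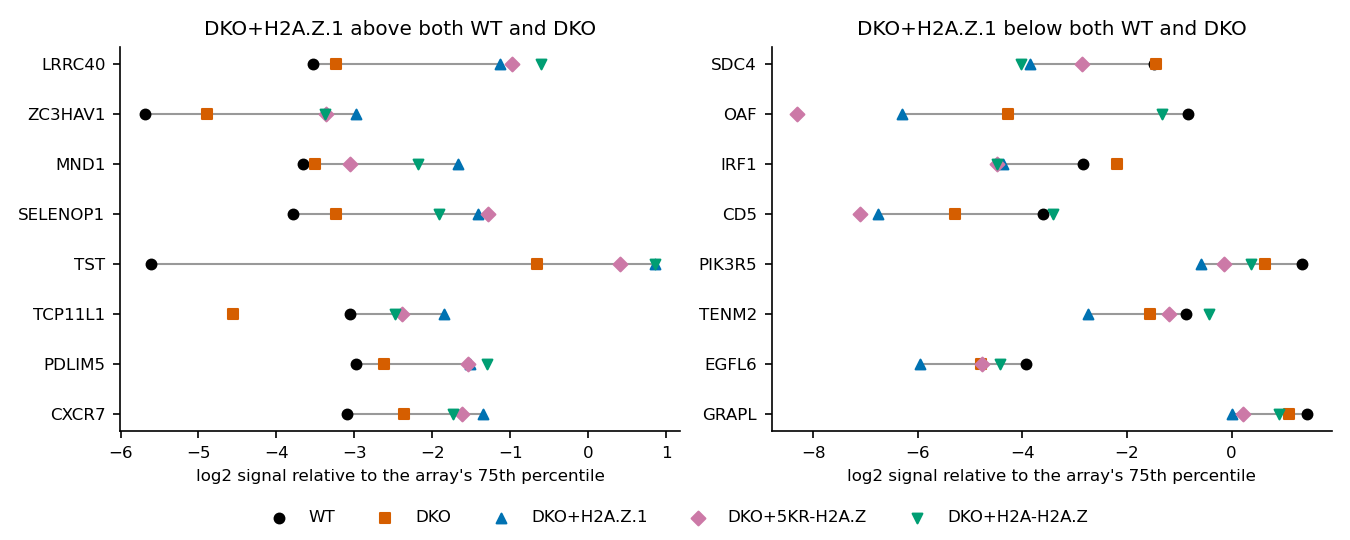
Levels on all 5 arrays (log2 signal relative to the array's 75th percentile) of the 8 genes in each direction chosen for the largest smaller difference of DKO+H2A.Z.1 from both WT and DKO; each symbol is 1 array and a grey line joins WT and DKO+H2A.Z.1. For LRRC40, ZC3HAV1, SELENOP1 and IRF1 both lines on the other slide lie beside DKO+H2A.Z.1, and for TENM2 they lie beside WT and DKO.

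The order of genes along chromosomes, taken from the gene table of assembly GRCg7b for names and order only, showed that some genes past 2-fold are neighbours. Among measured genes, 15 adjacent pairs were past 2-fold in the same direction, 4 higher and 11 lower. Of 172 neighbours of higher genes, 8 were themselves higher (4.65%, beside 1.94% of all measured genes), and of 344 neighbours of lower genes 22 were lower (6.40%, beside 3.93%). MPST and TST lie side by side with no other gene of the table between them, and so do CA3A and CA3B, LPAR3 and SSX2IP, SFTPA2 and MBL2, LRRC7 and LRRC40, and ELL2 and GLRX. CA3B, a carbonic anhydrase, had levels of 3.77 in WT, 1.13 in DKO, 1.60 in DKO+H2A.Z.1, 1.52 in DKO+5KR-H2A.Z beside 2.71 in DKO+H2A-H2A.Z (4.49-fold lower, with 2 of 2 probes past 2-fold). CA3A was 2.96-fold lower.

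Other pairs joined genes of unrelated function. ATP2B1, the calcium pump of the plasma membrane, was 3.46-fold higher (5 of 5 probes past 2-fold), with levels of -0.38 in WT, 2.13 in DKO, 1.41 in DKO+H2A.Z.1, 1.86 in DKO+5KR-H2A.Z beside 1.27 in DKO+H2A-H2A.Z, and LUM, a matrix proteoglycan, was at least 1.85-fold higher. Between ATP2B1 and LUM lie 6 genes of the table that were not measured. ELL2 was 18.5-fold lower and GLRX, a glutaredoxin, 2.45-fold, but with normexp GLRX differed by only 0.35 on the log2 scale, which ends the pair. BCL2 and CDH20, with 11 genes of the table between them that were not measured, were both lower. SSX2IP was 3.12-fold lower beside LPAR3, a receptor for lysophosphatidic acid, at least 2.55-fold. Normexp likewise took LUM, BCL2, CDH20, SSX2IP, LPAR3, SFTPA2, LRRC7 and AVR2 under 2-fold. Of the pairs named in the text, only MPST and TST, CA3A and CA3B, and FABP5 and FABP4 kept both genes past it. The neighbour shares above were counted before these losses. Several pairs are copies of one ancestral gene (CA3A and CA3B, AVR2 and AVD, and FABP4 and FABP5), and whether a probe for one also binds transcripts of the other was not tested. Nor was this tested for the sulfurtransferases MPST and TST.

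Small differences ran along longer stretches as well. The running median over 15 measured genes in chromosome order was taken along 4111 genes and gave 3656 values on 30 chromosomes. Genes near chromosome ends, or on chromosomes with under 15 such genes, had no value. The 4111 genes were those well above background on all 5 arrays, a narrower set than the genes of the pairs above. The running median reached -0.4 or lower at 139 genes. Runs of such genes under 15 genes apart were joined, which gave 3 stretches, together 143 genes. Nowhere did the running median reach 0.4 or higher. Outside the stretches it stayed between -0.36 and 0.24. The window and limit were chosen after the data were seen. The stretches were cut by these same differences. Their low medians, counts of lower genes and distance from the rest of the chromosome therefore describe how they were chosen. With a window of 9 genes 4 stretches were found, and with a window of 25 or a limit of 0.3 there were 3. Of the 18 genes from EIF3H to ARC, described below, 14 reached the limit of -0.4 with the window of 15. With windows of 9 and 25 only 9 and 6 of them did.

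The longest stretch held 73 genes from SNX20 to WWP2, with a median difference of -0.56 (middle 50%, -0.73 to -0.37), or 1.48-fold lower. Of these, 70 were below 0 and 2 were past 2-fold lower, while the 56 others of that chromosome among the 4111 genes had a median of -0.05. Over the same genes the median difference from WT was -0.46 in DKO, -0.51 in DKO+5KR-H2A.Z beside -0.53 in DKO+H2A-H2A.Z, values that share the WT array. Over all ordered genes those medians were 0.17, 0.07 and 0.02. Members range over many functions: GPI, an enzyme of glycolysis, had levels of 6.35 in WT and 5.88 in DKO+H2A.Z.1, SLC7A5, a transporter of large amino acids, 4.19 and 3.61, and NIP7, a factor of ribosome assembly, 6.53 and 6.02. IRF8 (-1.02) and NAE1, a subunit of the NEDD8-activating enzyme (-1.07), were past 2-fold. Exceptions above 0 were NQO1, a quinone reductase (0.40), CBFA2T3 (0.21) and MC1R (0.02).

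A second stretch of 52 genes, from SUPT7L to PCMT1, had a median of -0.51, or 1.43-fold lower, with 50 genes below 0 and 3 past 2-fold. The 256 others of its chromosome had a median of 0.00 when rounded. Its median difference from WT was -0.45 in DKO+5KR-H2A.Z but -0.12 in DKO and 0.04 in DKO+H2A-H2A.Z. The mitochondrial superoxide dismutase SOD2 had levels of 4.97 in WT, 4.55 in DKO, 4.51 in DKO+H2A.Z.1, 4.68 in DKO+5KR-H2A.Z beside 5.15 in DKO+H2A-H2A.Z, the chaperonin subunit TCP1 had 7.15, 7.16, 6.69, 6.90 and 6.99, and the general transcription factor TBP had 2.62, 2.66, 2.08, 2.27 and 2.74. DKO+H2A.Z.1 was the lowest array for each of these.

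The third stretch, 18 genes from EIF3H to ARC near the end of its chromosome in the gene order, had a median of -0.39, or 1.31-fold lower, with 17 genes below 0 and 1 past 2-fold. The 306 others of that chromosome had a median of -0.02. Its median difference from WT was 0.05 in DKO, -0.32 in DKO+5KR-H2A.Z beside -0.47 in DKO+H2A-H2A.Z. It holds MYC, the growth-promoting transcription factor, with levels of 4.19 in WT, 4.34 in DKO, 3.81 in DKO+H2A.Z.1, 3.62 in DKO+5KR-H2A.Z beside 3.79 in DKO+H2A-H2A.Z, and RAD21, a subunit of cohesin, with a difference of -0.59. SQLE, an enzyme of cholesterol synthesis, differed by -0.51.

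**Figure D5:**
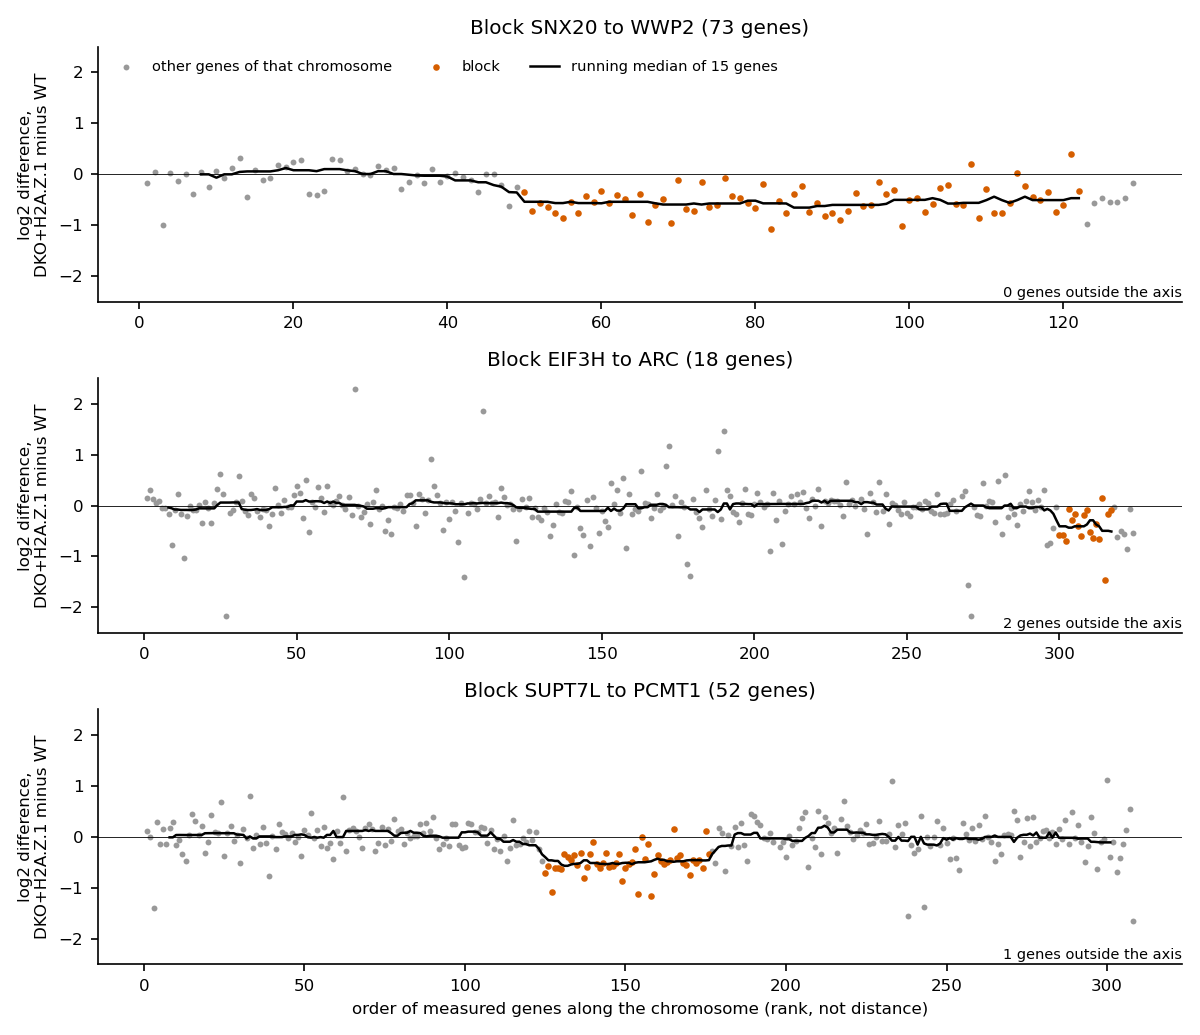
Difference on the log2 scale, DKO+H2A.Z.1 minus WT, of genes well above background on all 5 arrays in their order along the chromosome (rank, not distance) for the 3 chromosomes with a stretch of lower genes, with 1 array per group; each point is 1 gene, orange marks the stretch, and the black line is the running median of 15 genes. The line drops to about the stretch medians of -0.56 (SNX20 to WWP2), -0.39 (EIF3H to ARC) and -0.51 (SUPT7L to PCMT1) and lies near 0 over most of the remaining genes.

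The stretches held 143 of these 4111 genes and, of the 78 among them that were past 2-fold lower, 6. They were chosen for low differences, which by itself brings low genes into them. Of 10 lists with no gene past 2-fold, the lowest gene of 7 lay in a stretch: CCNE1, a cyclin of S phase entry (-0.60), CENPN, a kinetochore protein (-0.76), RPL13 (-0.29), NIP7 (-0.51), ACAT2 (-0.52), CEBPG, a stress-responsive transcription factor (-0.59), and COX4I1, a subunit of cytochrome c oxidase (-0.50). No highest gene of such a list did, and the choice of the stretches by low differences bears on both counts. The level of each stretch was steady over the alternative settings, from -0.56 to -0.51 for SNX20 to WWP2, from -0.51 to -0.46 for SUPT7L to PCMT1 and from -0.44 to -0.34 for EIF3H to ARC.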

How the data were processed

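From each culture 100 ng of total RNA was labelled with Cy3 and hybridised to a one-colour Agilent array, per the labels' protocols. Per the file headers, Feature Extraction 11.5.1.1 wrote the deposited scanner files, whose processed signal is a linear intensity with background subtracted, next to median spot and background intensity and flags. In the authors' value table each intensity is the processed signal times a constant of its array (1.07 for WT, 1.03 for DKO+H2A.Z.1). Its medians were 92.1 to 121.7 on the 5 arrays, and the sources used here do not say how the constant was set.

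Here, log2 of the processed signal minus log2 of each array's 75th percentile over non-control spots was used. The 2 to 37 marked spots of an array were omitted, and spots of a probe averaged. RefSeq accessions, looked up in the GRCg7b gene table, named 11935 of 43603 probes and left 1141 RefSeq spots unnamed. The files' annotation is galGal3, so no coordinates are given. Each gene was read from the probe brightest over all 5 arrays (3624 genes had several). Genes were named by rule: H2AFZ; the 15 largest differences each way where both arrays were well above background, and the 6 largest bounds; the 8 genes each way furthest from both other states among WT, DKO and DKO+H2A.Z.1; up to 6 list members past 2-fold, or the extremes of a list with none; and neighbours both past 2-fold. Core pathway genes, B cell markers and genes of the stretches were picked after their values were seen. The text names a part of the rest, and some genes chosen by the rule are not reported here. Members, lists and rule were chosen with earlier results of these data known; 851 of 1515 list genes were on the array. With 1 array per group there was no test. Steps were tested on simulated data. Alternatives were normexp (offset 50, on median intensities, since no mean intensity was in the files used), quantile, cyclic loess, median centring, scaling to 8 spike-in probes, the authors' table, other filters, the median over probes, marked spots kept, and thresholds of 1.5-fold and 3-fold. Python 3.11.15, numpy 2.4.6, pandas 2.3.3, matplotlib 3.10.9, R 4.3.3 and limma 3.58.1 were used.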

Additional observations from a re-analysis of the deposited data

How the results depend on the processing

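Genes at least 2-fold higher numbered 86 and lower 174. With normexp they were 40 and 57, and with only genes well above background on both arrays 49 and 97. With no filter on dim probes 268 were lower. At 1.5-fold there were 190 higher and 384 lower, and at 3-fold 54 and 98. Under the other alternatives the counts stayed within 1.5 times, and the median of all genes ran from -0.07 to 0.02. BCL2A1 changed sign with normexp (-0.046). Of 100 named genes past 2-fold, 50 remained so under all 10 alternatives, 39 were lost with normexp and 36 with the filter on both arrays, which by construction leaves out genes measured on 1 array. No other alternative lost more than 3. Signal over background limits these calls: 37 of the higher and 77 of the lower genes were not well above background on 1 array. No paired analysis was possible because the groups share a single replicate number and hold 1 array each.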
